A study of Mus musculus with 2 samples.

Results

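The genes described here encode heat shock proteins, the J-domain (Dnaj) co-chaperones that serve them, protein disulfide isomerases (Pdia), the CCT chaperonin and the transcription factors Hsf1 and Hsf2. They were chosen by gene symbol alone, as rows beginning with Hspa, Hspb, Hspd, Hspe, Hsph, Dnaj, Pdia and a digit or Cct and a digit, together with Hsp90aa1, Hsp90ab1, Hsp90b1, Hsf1 and Hsf2. Of 86 such rows among 19674 in the count table, 80 reached 50 counts summed over both libraries and are the members. All measured genes, by the same minimum, numbered 13534. The members with the fewest summed counts were Dnajb3, at 44 with vehicle and 61 with IL-17A, then Dnajc12 and Hspb7. The 6 rows under the minimum were Hspb2, at 18 and 10 counts, Hspa1l, Cct6b, Dnajc6 and the pseudogenes Cct3-ps1 and Hspd1-ps4. The rule also took in Hspb11, an intraflagellar transport protein, and Hspbap1, an Hspb1-associated protein, which are not themselves heat shock proteins. It took in 4 processed copies as well, among them Hspd1-ps3, Hspa9-ps1 and Dnajc19-ps.

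RNA was sequenced in bulk from fibroblasts of mouse skin, a wild-type line labelled MDFB, given either vehicle or the inflammatory cytokine IL-17A in culture. Each group was a single library of cultured cells, both from the same labelled batch, and neither dose nor exposure time was stated. With 1 library per group no spread between cultures could be measured, so no p-value is given. The interval beside each difference is an exact 95% interval from the counts and covers counting error only.

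Molecular chaperones help proteins reach and keep their folded state. HSP70 proteins bind exposed hydrophobic stretches in a cycle driven by ATP, J-domain proteins bring them their clients, and nucleotide exchange factors such as the HSP110 proteins release them. HSP90 acts later on kinases and receptors, and CCT folds actin and tubulin inside a ring. The cytosol, the endoplasmic reticulum (ER) and the mitochondrion each hold their own HSP70. Protein disulfide isomerases work in the ER, where secreted proteins such as fibroblast collagen are folded. Cytosolic misfolding acts on chaperone genes mainly through Hsf1, and misfolding in the ER through the unfolded protein response with its factors Xbp1, Atf6 and Atf4.

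The libraries held 24427027 vehicle counts and 23559416 IL-17A counts, and mitochondrially encoded transcripts took 0.688% and 0.637% of them. Levels are in CPM, the count as a rate of the library size after TMM scaling. Ratios are IL-17A over vehicle on the log2 scale, and a gene said to stand or be at a number is given by that ratio, with its interval in parentheses. Their median over all measured genes was 0.00 and the interquartile range -0.20 to 0.22. Total-count scaling lowered each ratio by 0.07 and upper-quartile scaling by 0.04, so a sign within that distance of 0 depended on the scaling. The 14 fibroblast markers were all detected but went both ways, with 5 above 0, or 4 with total-count scaling. Their sum was 61367 CPM with vehicle and 46417 with IL-17A, and most of it was collagen. Col1a1 stood at -0.64 (-0.65 to -0.63), Vim at -0.59 (-0.61 to -0.58) and Pdgfra at -0.06 (-0.08 to -0.03). Dcn was 6.15-fold and Twist2 2.23-fold higher, and Fap was 2.33-fold lower. Marker sums were 3.36 and 4.48 CPM for keratinocytes, 211 and 293 for leukocytes, and 6.96 and 6.52 for endothelium. Lyz2, named after its value was seen, held 153 and 227 CPM of the leukocyte sum. Of the 9 measured leukocyte markers, 7 were above 0 and 2 below. Of the 3 measured endothelial markers, 2 were above 0, or 1 with total-count scaling, and Tek was 2.50-fold lower from 49 and 18 counts. In bulk RNA, fewer cells of a type and less RNA per cell cannot be told apart.

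Known DNA elements bring heat shock factors and ER stress factors to chaperone genes, and the sequences below show matches to them in members of different compartments. RefSeq promoter windows of GRCm38.p6, running from 250 bases before to 50 after an annotated start, were matched for 63 members. The ER stress element was searched as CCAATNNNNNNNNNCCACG on both strands. It was found in 39 of 32851 windows genome-wide (0.119%) and in 4 of the 10 ER lumen members with a window, Hspa5, Hsp90b1, Pdia6 and Dnajc3. It was found in 0 of 29 cytosolic members, which would not be unusual at 0.119% of windows. The shorter form ATTGGNCCACG, in 0.0365% of windows, was found in Dnajb11, 7 to 17 bases after its start. The following stretches show the element in capitals, 5′ to 3′ on the gene's strand, for Hspa5 at chr2:34772020-34772048 on the plus strand, Hsp90b1 at chr10:86705510-86705694 on the minus strand, Pdia6 at chr12:17266441-17266544 on the plus strand and Dnajc3 at chr14:118937777-118937895 on the plus strand. Hsp90b1 held 2 elements in opposite orientations.
Hspa5: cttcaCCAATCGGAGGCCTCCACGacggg
Hsp90b1: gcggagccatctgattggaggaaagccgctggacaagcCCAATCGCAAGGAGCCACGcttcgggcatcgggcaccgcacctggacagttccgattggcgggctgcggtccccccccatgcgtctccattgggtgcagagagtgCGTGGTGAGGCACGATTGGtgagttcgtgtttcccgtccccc
Pdia6: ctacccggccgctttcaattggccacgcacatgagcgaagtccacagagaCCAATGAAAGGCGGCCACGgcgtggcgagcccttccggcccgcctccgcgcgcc
Dnajc3: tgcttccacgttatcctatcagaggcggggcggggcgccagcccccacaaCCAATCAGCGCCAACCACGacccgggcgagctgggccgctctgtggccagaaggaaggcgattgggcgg

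The heat shock element is built from inverted repeats of GAA. Its form with 3 repeats, GAANNTTCNNGAA on either strand, was found in 198 windows (0.603%) and in 4 members, Hspd1, Hspe1, Dnajb6 and Hsph1. Hspd1 and Hspe1, which encode the mitochondrial chaperonin pair HSP60 and HSP10, are read in opposite directions from a shared region and shared 1 element of 2 overlapping matches. In Hsph1 the element lay after the annotated starts. The form with 2 repeats, GAANNTTC, which overlaps the longer one, was far commoner and was found in 7.86% of windows. It was found in 13 of the 63 members, among them Hspa1a, Hspa1b, Hspb1, Hspb6, Dnaja1 and Dnaja4. By compartment it was found in 10 of 29 cytosolic members and in 0 of the 10 ER lumen members. At 7.86% of windows, 0 among 10 genes would not be unusual. The 63 members had 81 windows, so counts of members and shares of windows are not on the same footing. TTCNNGAA, in 8.52% of windows, was found in 8 members, of which Dnajc10 was the 1 from the ER lumen. Below, capitals mark the element with 3 repeats in Hspe1 at chr1:55088054-55088081 and Dnajb6 at chr5:29735847-29735869, both on the plus strand, and GAANNTTC in Hspa1a at chr17:34972203-34972310 on the minus strand. All 108 bases of the last stretch were identical in Hspa1b, at chr17:34959285-34959392.
Hspe1: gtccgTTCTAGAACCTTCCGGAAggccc
Dnajb6: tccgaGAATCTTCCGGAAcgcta
Hspa1a: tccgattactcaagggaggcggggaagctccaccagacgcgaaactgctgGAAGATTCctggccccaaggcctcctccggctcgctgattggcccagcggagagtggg

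**Figure D1:**
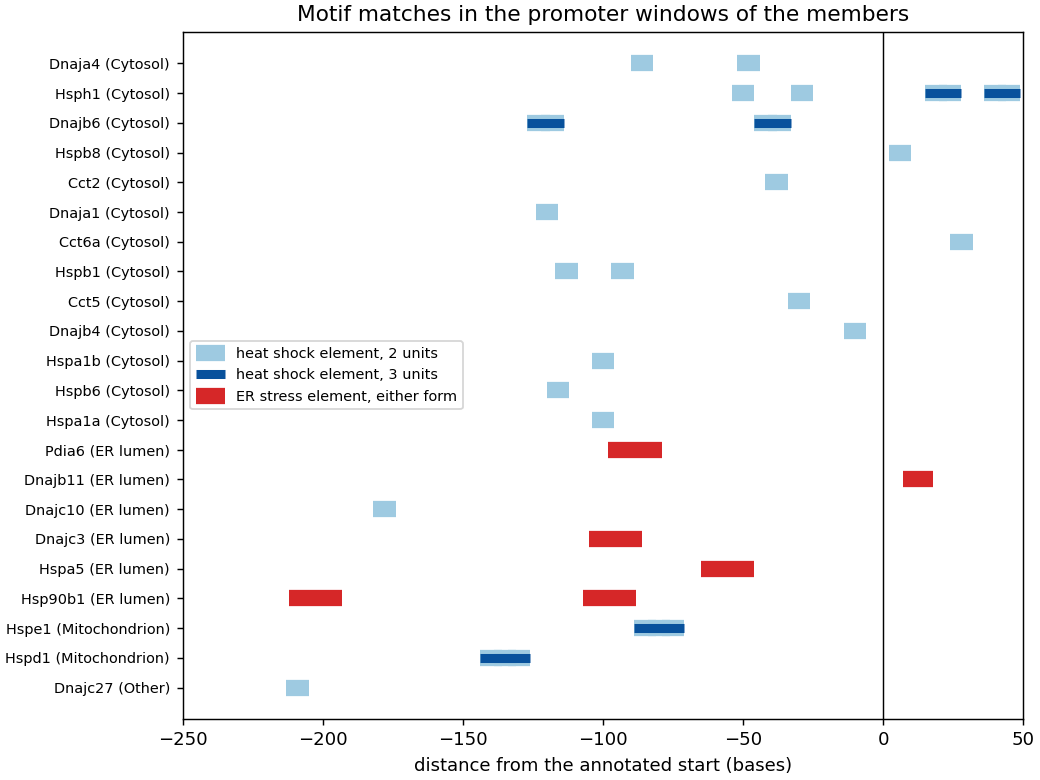
Positions of motif matches relative to the annotated start, in bases, for the members with at least 1 match; pale blue marks 2 repeats of the heat shock element, dark blue 3 repeats and red the ER stress element in either form. Red marks lie in ER lumen members, and Dnajb6 and Hsph1 show each site at different distances because they have more than 1 annotated start.

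Few chaperone transcripts differed by a large factor between the libraries. Among the 80 members, none (0) exceeded vehicle by 2-fold or more under IL-17A, as 5.19% of all measured genes did, and 1 was at least 2-fold lower, as 3.69% of genes were. That 1 was Hspb7, a small heat shock protein of heart muscle. At 1.5-fold, 4 members were higher and 3 lower, against 10.1% and 8.25% of all measured genes. The 4 were Hspa4l, Dnajc28, Hspa13 and Dnajb3, and the 3 were Hspb7, Hspa1a and Hspb6. The remaining 73 members (91.2%) lay within 1.5-fold, as did 81.7% of measured genes. Ratios above 0 were found for 45 members, or 56.2%, against 50.3% of all measured genes, and the members' median was 0.04. With total-count scaling 34 members were above 0 and the median was -0.028.

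**Figure D2:**
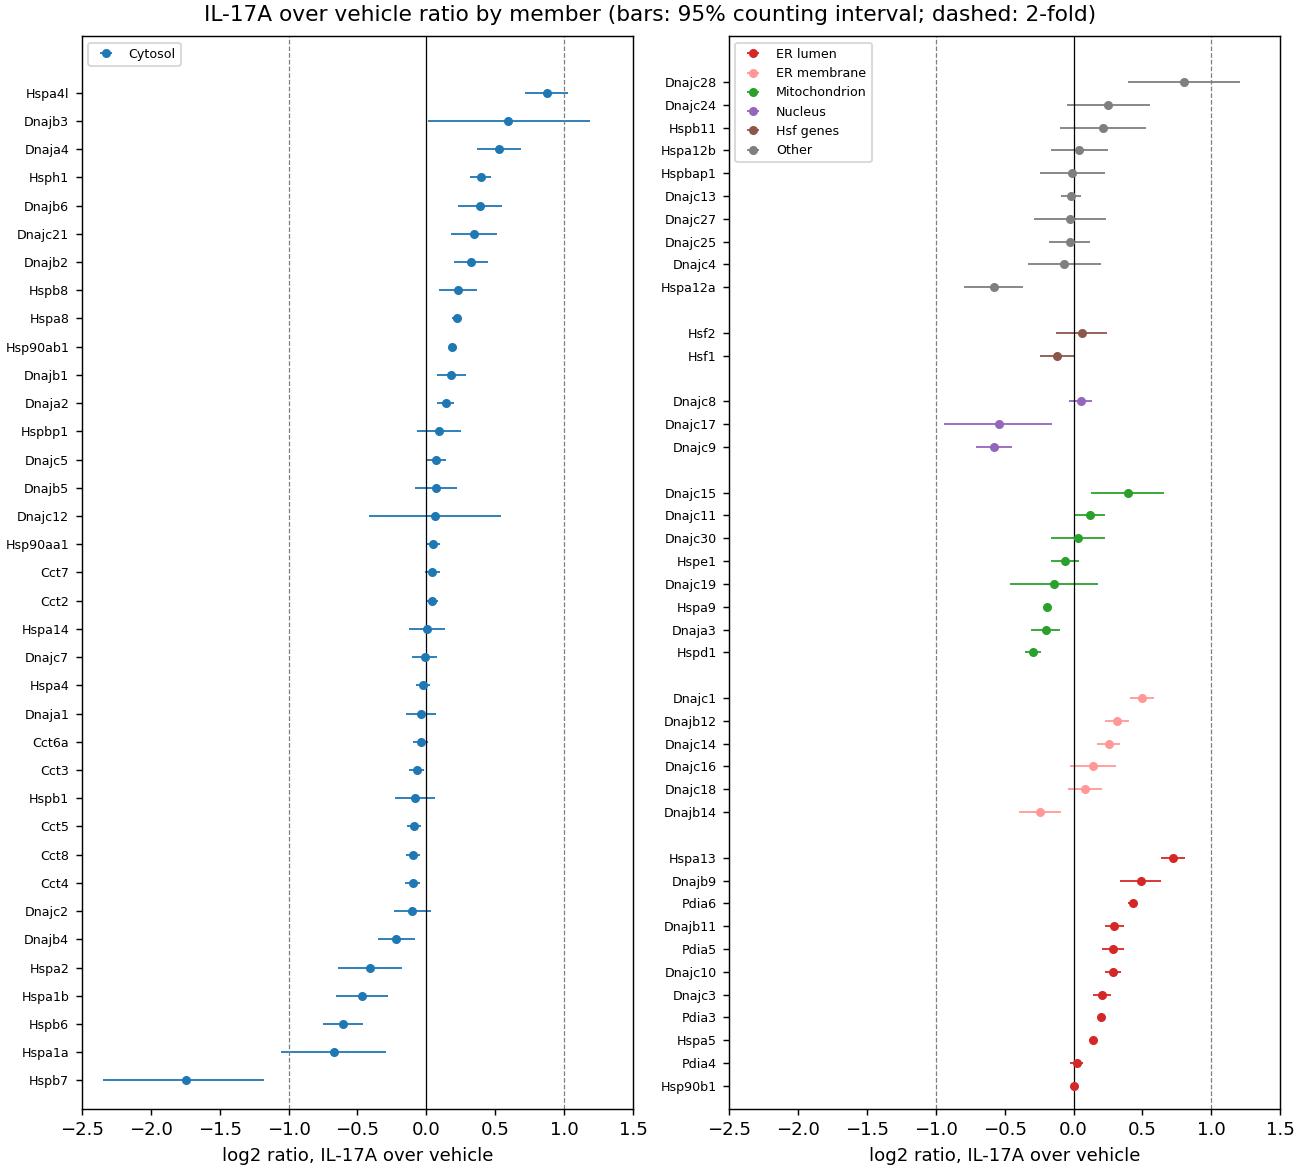
Log2 ratio of IL-17A over vehicle for the 76 members that are not processed copies, cytosolic on the left and the others on the right, coloured by compartment; bars are 95% counting intervals and dashed lines mark 2-fold. The point of Hspb7 alone lies past a dashed line, and the 11 ER lumen members lie at 0.00 to 0.72.

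Members were sorted by the compartment in which textbook knowledge places their products. There were 36 in the cytosol, 11 in the ER lumen, 6 J-domain proteins of the ER membrane, 8 in the mitochondrion, 3 in the nucleus, the 2 Hsf genes, 10 placed elsewhere or not assigned, and the 4 copies. ER lumen members stood above cytosolic ones. The 11 ER lumen members had a median of 0.29, with ratios of 0.00 to 0.72, and all 11 were above 0 with TMM and with DESeq2 size factors, but 9 were above 0 with total-count and upper-quartile scaling. The 36 cytosolic members had a median of 0.04 and ratios of -1.74 to 0.87, with 20 above 0, and with total-count scaling 15 were above 0 and the median was -0.026. The medians differed by 0.24. Scaling cannot change this difference, since each scaling shifts all ratios alike. Over the other choices of members and minimum tried, the medians differed by 0.21 to 0.26. Both compartments overlapped, since 5 cytosolic members stood at 0.39 or above and 2 ER members stood at 0.00 and 0.02. No test of this difference was possible with 1 library per group.

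Summed levels, which the most abundant genes dominate, were also higher for the ER lumen, slightly so for the cytosol, and lower for the mitochondrion. On this scale the sum of all measured genes itself had a log2 ratio of 0.07, so sums are to be read beside that value. As shares of all counts with vehicle and IL-17A, ER lumen members took 0.476% and 0.512%. Cytosolic members took 0.595% and 0.605%, and mitochondrial members 0.142% and 0.120%. ER lumen members together went from 4647 CPM with vehicle to 5242 with IL-17A, a log2 ratio of 0.17 (95% counting interval 0.16 to 0.19). Cytosolic members went from 5815 to 6198 CPM, a log2 ratio of 0.09 (0.08 to 0.10). Without the CCT subunits the cytosolic sum went from 3957 to 4391 CPM, a log2 ratio of 0.15 (0.14 to 0.16). That was close to the ER lumen sum, so the sums differed mainly through CCT. Mitochondrial members went from 1391 to 1228 CPM, a log2 ratio of -0.18 (-0.20 to -0.16), and their median over 8 genes was -0.10. The 6 J-domain proteins of the ER membrane went from 344 to 412 CPM, a log2 ratio of 0.26 (0.22 to 0.30) and so above the ER lumen sum, with a median of 0.20 and 5 of 6 above 0 under each scaling tried.

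**Figure D3:**
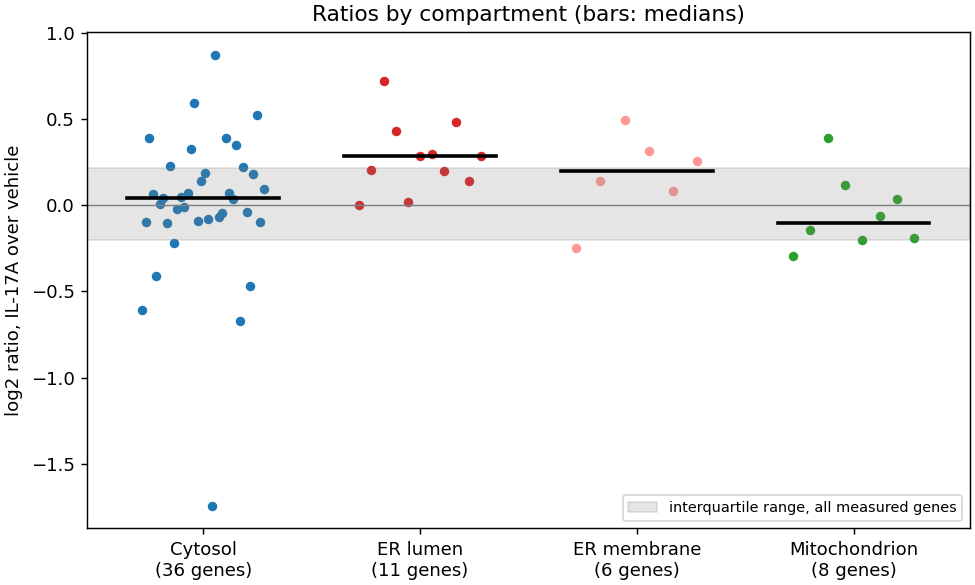
Log2 ratio of IL-17A over vehicle for members of 4 compartments, 1 point per gene, with black bars at the medians (0.04, 0.29, 0.20 and -0.10). The grey band is the interquartile range of all measured genes, -0.20 to 0.22, and the ER lumen median lies above it.

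In the ER lumen, the HSP90 and the main HSP70 differed little and the HSP70 relative Hspa13 more. Hsp90b1 (GRP94), the HSP90 of the ER, had 30539 vehicle counts and 28186 IL-17A counts, and its ratio was 0.00 (-0.02 to 0.03). Hspa5 (BiP), the HSP70 that binds nascent chains and holds the unfolded protein response sensors inactive, had 24124 and 24465 counts, a log2 ratio of 0.14 (0.11 to 0.17). The HSP70-like ATPase Hspa13 had 1910 and 2899 counts and was 1.65-fold (1.56 to 1.75) higher, the highest ratio among ER lumen members. On GRCm38.p6, Hspa5 lies on chromosome 2 at 34772090 to 34776529 and Hsp90b1 on chromosome 10 at 86690841 to 86705444.

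The 4 J-domain co-chaperones of Hspa5 placed in the ER lumen were higher in the IL-17A library under each scaling tried, each by less than 1.5-fold. Dnajb9 (ERdj4) had 641 and 826 counts, a log2 ratio of 0.49 (0.34 to 0.64). Dnajb11 (ERdj3), which binds clients with Hspa5, had 3070 and 3470, a log2 ratio of 0.30 (0.23 to 0.37). Dnajc10 (ERdj5), which reduces disulfides, had 4225 and 4741 counts, a log2 ratio of 0.29 (0.23 to 0.35). Dnajc3 (P58IPK) had 4000 and 4244, a log2 ratio of 0.21 (0.14 to 0.27). The 4 together summed to 477 CPM with vehicle and 577 with IL-17A, a log2 ratio of 0.27 (0.24 to 0.31), above Hspa5 itself at 0.14.

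Disulfide isomerases, which form and rearrange disulfide bonds, had a median of 0.24 over 4 genes, of which 3 stayed above 0 with total-count and upper-quartile scaling. Pdia6 (P5) had 12293 and 15223 counts and was 1.35-fold (1.31 to 1.38) higher. Pdia5 had 2383 and 2677 counts, a log2 ratio of 0.29 (0.21 to 0.37). Pdia3 (ERp57), which serves glycoproteins held by calnexin and calreticulin, had 24491 and 25916, a log2 ratio of 0.20 (0.18 to 0.23). Pdia4 (ERp72) had 8541 and 7979 counts, a log2 ratio of 0.02 (-0.02 to 0.07) and was the 1 that moved below 0.

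At the ER membrane, Dnajc1 (ERdj1), whose J domain faces the lumen and works with Hspa5, had 1978 vehicle counts and 2570 IL-17A counts, a log2 ratio of 0.50 (0.41 to 0.58). Dnajb12 stood at 0.32 (0.23 to 0.40), Dnajc14 at 0.25 (0.17 to 0.34) and Dnajc18 at 0.08 (-0.04 to 0.21). The 1 member below 0, named after its value was seen, was Dnajb14, a log2 ratio of -0.25 (-0.40 to -0.09), a paralog of Dnajb12.

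Cytosolic HSP70 genes went both ways. Hspa8 (HSC70), the constitutive form, had 15337 vehicle counts and 16453 IL-17A counts, a log2 ratio of 0.22 (0.19 to 0.25). The stress-inducible pair was lower: Hspa1a had 161 and 93 counts, 1.59-fold (1.23 to 2.08) lower, and Hspa1b 575 and 383, 1.38-fold (1.21 to 1.58) lower. Their coding sequences are near-identical, so reads may have been split or dropped between them, and their sum, 736 and 476 counts, stood at -0.51 (-0.68 to -0.34). Hspa2, named after its value was seen, was also lower, at 388 and 269 counts and -0.41 (-0.64 to -0.18).

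Of the 3 HSP110 exchange factors of these HSP70s, 2 were above 0. Their summed ratio was 0.17 (0.13 to 0.21) and their median 0.39. The summed ratio of the cytosolic HSP70 genes, mostly Hspa8, was 0.17 (0.14 to 0.20), but their median was -0.41. Hspa4l had 544 and 917 counts and was 1.83-fold (1.65 to 2.04) higher, the highest ratio of any member. Hsph1, a stress-inducible paralog, had 2730 and 3299 counts, a log2 ratio of 0.39 (0.32 to 0.47), whereas Hspa4, named after its value was seen, had 6641 and 6014, a log2 ratio of -0.02 (-0.07 to 0.03). The ratio of Hspa4l thus lay outside the counting intervals of both paralogs.

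Among HSP90 genes, the constitutive Hsp90ab1 had 43684 and 45763 counts, a log2 ratio of 0.19 (0.17 to 0.21). The inducible Hsp90aa1 had 6214 and 5908 counts, a log2 ratio of 0.05 (-0.00 to 0.10). Per kilobase of annotated exon, Hsp90ab1 had the highest level of any member in both libraries, 582 and 663 CPM per kb. It was followed in the vehicle library by Pdia3 at 312, Hsp90b1 at 303, Hspa5 at 228 and the mitochondrial Hspa9 at 222, and Hspa1b stood at 8.20 and Hspa1a at 2.17.

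**Figure D4:**
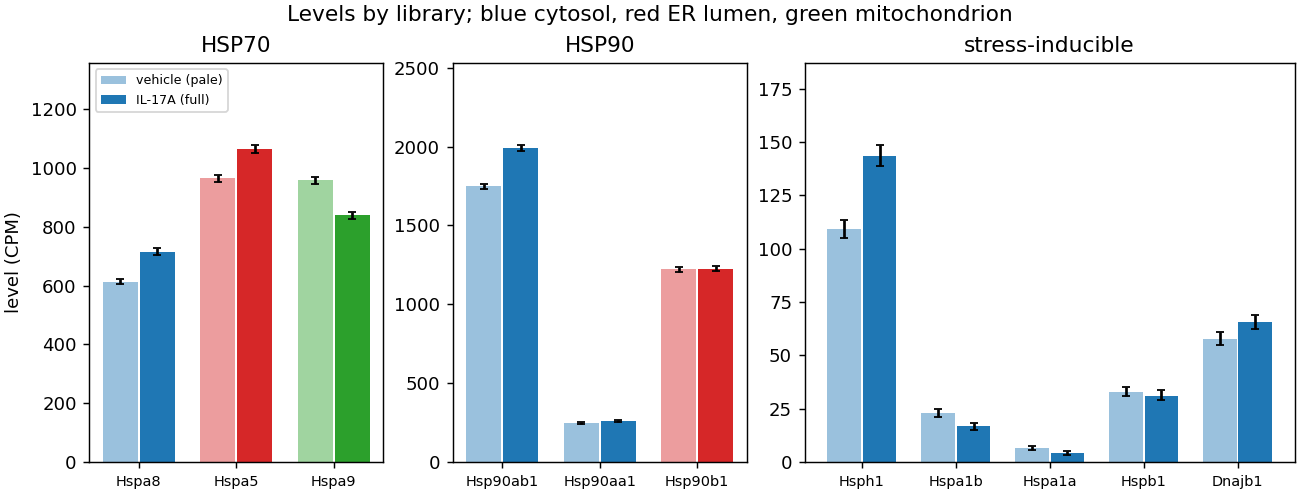
Levels in CPM of the HSP70 and HSP90 genes of each compartment and of 5 stress-inducible members, vehicle in pale and IL-17A in full colour, for comparison within a gene; error bars are 95% Poisson counting intervals. Hspa8 and Hspa5 are higher and Hspa9 lower in the IL-17A library, and Hsph1 is higher while Hspa1b and Hspa1a are lower.

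Small heat shock proteins, which hold unfolded proteins without ATP, held the largest difference. Hspb7 had 120 vehicle counts and 33 IL-17A counts, or 4.80 and 1.43 CPM, and was 3.35-fold (2.26 to 5.08) lower. Hspb6 (HSP20), abundant in smooth and striated muscle, had 1027 and 621 counts and was 1.52-fold (1.38 to 1.68) lower. Hspb1, the widely expressed HSP25, had 823 and 716 counts, a log2 ratio of -0.08 (-0.23 to 0.07), and Hspb8, partner of Bag3 and named after its value was seen, 801 and 864, a log2 ratio of 0.23 (0.09 to 0.37). Cryab, a further small heat shock protein of muscle and lens outside the members, had 1974 and 776 counts and was 2.34-fold (2.15 to 2.55) lower. Markers of mural cells and melanocytes were lower in the IL-17A library too. The 9 genes of both kinds summed to 65.9 CPM with vehicle and 14.1 with IL-17A, and 1, the melanocyte enzyme gene Tyr, was at 0 counts in both. Among them the smooth-muscle myosin Myh11 went from 1101 to 135 counts, Abcc9 from 169 to 12 and Kcnj8 from 100 to 6. The part of these markers in the lower Hspb7, Hspb6 and Cryab was not tested.

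Cytosolic J-domain proteins had a median of 0.11 over 14 genes, with 10 above 0, and 9 with total-count scaling. The inducible HSP40 Dnajb1 had 1444 and 1507 counts, a log2 ratio of 0.18 (0.08 to 0.29), and Dnaja1 had 1438 and 1287, a log2 ratio of -0.04 (-0.15 to 0.07). Dnajb3, known from testis, was 1.51-fold (1.01 to 2.27) higher from 44 and 61 counts. Dnaja4, named after its value was seen, had 574 and 761 counts, a log2 ratio of 0.53 (0.37 to 0.69), and Dnajb6, named for its heat shock element, 607 and 732, a log2 ratio of 0.39 (0.23 to 0.55). The other cytosolic J-domain proteins stood between -0.22 and 0.35. Over all 38 J-domain proteins of any compartment the median was 0.10.

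Subunits of CCT, the ring-shaped chaperonin of actin and tubulin, kept close together. The 7 subunits among the members ranged from -0.10 to 0.04, with a median of -0.07, and 2 were above 0, or 0 with total-count scaling. Cct4, Cct8 and Cct5 were at -0.10, -0.10 and -0.09, and Cct3 and Cct6a at -0.07 and -0.04. Cct7 and Cct2 stood at 0.04 each, with counts of 6222 and 5904 for Cct7 and 8571 and 8104 for Cct2. Their sum went from 1857 to 1807 CPM, a log2 ratio of -0.04 (-0.06 to -0.02). Tcp1, the remaining subunit, carries no Cct symbol and stood at -0.07 (-0.12 to -0.03), inside the range of the 7.

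Of the mitochondrial chaperones, 5 of 8 were below 0 in the ratio. Hspd1 (HSP60) had 5411 vehicle counts and 4059 IL-17A counts, a log2 ratio of -0.29 (-0.35 to -0.24). Its partner Hspe1 (HSP10) had 1665 and 1467, a log2 ratio of -0.06 (-0.16 to 0.04). Hspa9 (mortalin), the mitochondrial HSP70, had 23947 and 19307 counts, a log2 ratio of -0.19 (-0.22 to -0.16). Its J-domain partner Dnaja3 had 1604 and 1283 counts, a log2 ratio of -0.20 (-0.31 to -0.10). The inner-membrane protein Dnajc19, of the import motor, stood at -0.14 (-0.46 to 0.18) and its relative Dnajc15 at 0.39 (0.13 to 0.66) from 217 and 262 counts. Dnajc11 was at 0.12 (0.01 to 0.23) and Dnajc30 at 0.03 (-0.16 to 0.23). Of the 8, 3 were above 0, or 2 with total-count and upper-quartile scaling. Hspd1 and Hspe1 have annotated exons that overlap on opposite strands, and no strand setting was given for the counting, so their reads may not be fully separated. The same limit held for 26 members in all, including Hsp90b1, Pdia3, Pdia6 and Dnajb9 in the ER lumen and Hspb6 and Hspa1a in the cytosol.

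Processed copies were lower in the IL-17A library, as their parents were, under each scaling tried. Hspd1-ps3 had 2751 and 2167 counts, a log2 ratio of -0.22 (-0.31 to -0.14). Hspa9-ps1 stood at -0.32 (-0.73 to 0.09) and Dnajc19-ps at -0.35 (-0.76 to 0.06), and both intervals included 0. Reads from a parent that also match its copy may be counted there, and values of these genes were taken as uncertain. With these copies added to their parents, Hspd1 stood at -0.27, Hspa9 at -0.19 and Dnajc19 at -0.22.

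In the nucleus, Dnajc9, a J-domain chaperone of histones, had 1277 and 788 counts, a log2 ratio of -0.58 (-0.71 to -0.45). Dnajc17 had 144 and 91 counts, a log2 ratio of -0.54 (-0.94 to -0.15), while the spliceosome protein Dnajc8 had 2511 and 2395, a log2 ratio of 0.05 (-0.03 to 0.13). The regulators themselves differed little. Hsf1, which switches on heat shock genes, had 1153 and 976 counts, a log2 ratio of -0.12 (-0.24 to 0.00), and Hsf2 had 495 and 475, a log2 ratio of 0.06 (-0.12 to 0.25). Of the 10 members placed elsewhere, Dnajc28 had 85 and 136 counts and was 1.74-fold (1.32 to 2.31) higher. The distant HSP70 relative Hspa12a had 465 and 286 counts, a log2 ratio of -0.58 (-0.80 to -0.37), while its paralog Hspa12b was at 0.04 (-0.17 to 0.25). The endosomal Dnajc13 stood at -0.02 (-0.09 to 0.05) and Dnajc25 at -0.03 (-0.18 to 0.12).

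**Figure D5:**
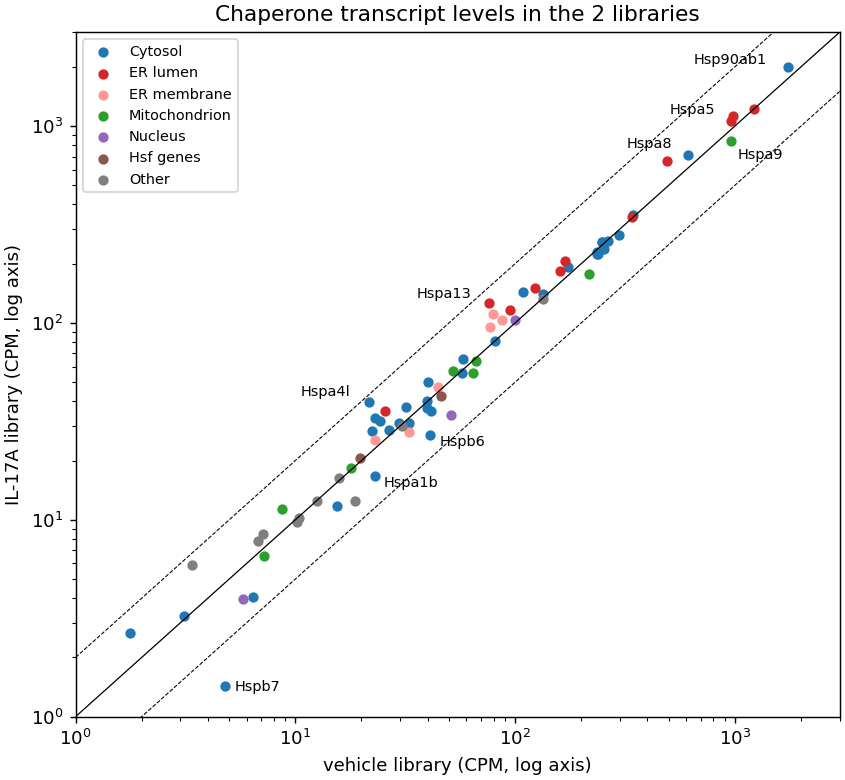
Level of each of the 76 members that are not processed copies in the vehicle library (horizontal) against the IL-17A library (vertical), in CPM on log axes, coloured by compartment; the solid line marks equality and the dashed lines 2-fold. Hspb7 lies outside the dashed lines at 4.80 and 1.43 CPM, and ER lumen members lie on or above the solid line.

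Chaperones known to be induced by heat showed no shared direction. Of 14 such members, from Hspa1a to Hspe1, 7 were above 0 and 7 below, the median was 0.00, or -0.06 with total-count scaling, 1 was at least 1.5-fold higher (Hspa4l) and 1 lower (Hspa1a). The list also held Hspa8 and Hsp90ab1, called constitutive above, which were among those above 0, at 0.22 and 0.19. These 2 held most of the list's sum, which went from 3273 to 3630 CPM. The log2 ratio of that sum was 0.15 (0.14 to 0.16), against 0.17 for the ER lumen sum. The 11 chaperones known to be induced by ER stress were the same genes as the ER lumen members, with the median of 0.29 given above. Members with motif matches also differed among themselves. The 4 with an ER stress element stood at 0.00 for Hsp90b1, 0.14 for Hspa5, 0.21 for Dnajc3 and 0.43 for Pdia6. Hspa13 was not among the 63 matched members. Those with 3 repeats of the heat shock element stood at -0.29 for Hspd1, -0.06 for Hspe1, and 0.39 for both Dnajb6 and Hsph1.

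Among genes of the same pathways outside the members, ER folding genes again had a higher median than cytosolic co-chaperones. The mitochondrial median lay between them rather than lowest. The 28 further ER folding genes included the lectin chaperones and the ER oxidases, but also genes of protein entry and of degradation. Of all 28, 20 were above 0, or 19 with total-count scaling. Their median was 0.14, 0 passed 2-fold, and the sum went from 6126 to 6677 CPM. Of 26 cytosolic co-chaperones, 14 were above 0, or 7 with total-count scaling, and the median was 0.01. Cryab was the 1 that passed 2-fold. Of 11 mitochondrial chaperones and proteases, 8 were above 0, or 6 with total-count scaling, with a median of 0.07 and 0 past 2-fold, in contrast to the mitochondrial members at -0.10. Of 11 genes for collagen folding and modification, 8 were above 0, or 7 with total-count scaling, with a median of 0.25. The 1 past 2-fold was P4ha2, a subunit of collagen prolyl hydroxylase, which was 2.89-fold (2.80 to 2.98) higher from 5284 and 14052 counts. P4hb and Ppib stood on both the ER and the collagen list. Of 15 regulators of the unfolded protein response, 7 were above 0 and 8 below, with a median of -0.00. Trib3, a pseudokinase downstream of Atf4, had 4099 and 1823 counts and was 2.07-fold (1.96 to 2.19) lower.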

How the data were processed

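Bulk RNA-seq libraries of 1 vehicle and 1 IL-17A culture were analysed. The authors deposited raw counts per gene symbol, made with STAR and featureCounts on mm10 per the submitters' processing notes, after stranded mRNA library preparation per the labels' protocols. For annotation, strand setting and multiply aligned reads, the choices were not given in the sources used here. Reads were not stated to carry molecular identifiers, so PCR duplicates may count more than once and intervals cover counting error only.

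Counts were scaled by TMM (edgeR 4.0.16, R 4.3.3) over the whole table, and ratios were taken for genes with at least 50 summed counts. Intervals are exact Clopper-Pearson 95% intervals of the IL-17A share (scipy 1.17.1). The calculation was tested on simulated data. Positions and promoter windows came from RefSeq, GRCm38.p6, the assembly of mm10, and exon lengths, which 79 members had, from GENCODE M21. Printed stretches leave out annotated exons beyond a site with its flanks. Other settings were total-count, upper-quartile and DESeq2 1.42.0 scaling, minimums of 10, 200 or none, a prior count of 2, 1.5-fold and other groupings. Adding copies to their parents was chosen after seeing the data.

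Members, compartments, lists and motifs were chosen with earlier results of these data known. Text names members at least 1.5-fold apart, the 4 most abundant per compartment, ER lumen, mitochondrial, CCT and 11 preset members, on each outside list at most 3 genes past 2-fold, Col1a1, Pdgfra and Vim. Others are marked, and 1 member is not reported by name here.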

Additional observations from a re-analysis of the deposited data

How the results depend on the processing

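With total-count scaling the ER lumen median was 0.22 and the cytosolic median -0.026, below 0, by the construction of that scaling, which lowers every ratio alike. Without J-domain proteins these medians were 0.20 and -0.033. A minimum of 200 summed counts left 0 members at least 2-fold lower, since Hspb7 falls under it, and no minimum gave 1 member at least 2-fold higher, Hspa1l at 2 and 6 counts. At 1.5-fold, 4 members were higher and 3 lower. The difference between the ER lumen and cytosolic medians ranged from 0.21, with ER membrane proteins counted as ER, to 0.26, with no minimum. Of 57 named members, 9 changed sign with total-count and 3 with upper-quartile scaling, by at most 0.07 and 0.04. With 1 library per group, no library could be left out. No paired analysis was possible because each group had 1 library, and no variation between cultures was measured. Members with few counts, such as Hspb7 and Dnajb3, carried wide intervals.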

Other observations

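The share of reads assigned to a processed copy was close in both libraries. Hspd1-ps3 held 33.7% of the summed Hspd1 and Hspd1-ps3 counts with vehicle and 34.8% with IL-17A. Dnajc19-ps held 40.5% and 37.1% of its sum with Dnajc19, and Hspa9-ps1 0.507% and 0.464% of its sum with Hspa9.

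The following genes were chosen after their values were seen. Of the unfolded protein response regulators inside 2-fold, Ern1, the sensor kinase that splices Xbp1 mRNA, had 708 and 1085 counts, a log2 ratio of 0.74 (0.60 to 0.87), and Xbp1 3352 and 3931, a log2 ratio of 0.35 (0.28 to 0.42). Ddit3, a death-promoting factor downstream of Atf4, had 1609 and 878 counts, a log2 ratio of -0.75 (-0.87 to -0.63), and Atf4 itself 10398 and 9535, a log2 ratio of -0.00 (-0.05 to 0.04). Serpinh1, the collagen chaperone HSP47, had 96256 and 75682 counts, a log2 ratio of -0.23 (-0.24 to -0.21), while Stip1, which links HSP70 to HSP90, had 5600 and 7917, a log2 ratio of 0.62 (0.57 to 0.67).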
